A study of Mus musculus with 9 samples.

Results

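The oviduct is the muscular tube that carries eggs and early embryos from the ovary to the uterus, and fertilization takes place inside it. Its lining holds secretory cells, which release a fluid rich in glycoproteins, and multiciliated cells, which move that fluid. A stroma and a coat of smooth muscle lie under the lining, and a mesothelium covers the outside. Messenger RNA was sequenced here from 5 normal mouse oviducts, which make up 5 of the 9 libraries of the study, and only these 5 are described. Oviducts 1, 2 and 3 carried the genotype Dicer1+/D1693N and oviducts 4 and 5 the genotype Dicer1+/+, with no treatment. Their age, strain and stage of the estrous cycle are not given in the sources used here, nor whether each library came from a separate animal. Dicer1 encodes the RNase III enzyme that cuts miRNA precursors, and D1693N is an amino acid change in that enzyme. Genes were described by their mean level over the 5 oviducts and by the spread among them.

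Levels of different genes are compared per length, as TPM (reads per base of annotated exon, scaled to the same total in each library). Values listed for the 5 oviducts stand in the order of oviduct 1 to oviduct 5, and a mean ± SD is over all 5 (n = 5), so it pools both genotypes. The libraries held 8504993 to 12526078 reads in genes. Between 595 and 877 of the 19435 genes had no read in a given oviduct, 17557 had a read in all 5, and 69 had none in any. The deposited log2 values of any pair of oviducts correlated across genes at 0.968 to 0.986. Some libraries stood apart in a limited set of genes. Oviduct 1 held high levels of ovarian steroid-making genes, oviducts 2 and 3 of antibody genes and oviduct 5 of fat cell genes. In oviduct 4 several endoplasmic reticulum chaperone genes were high, while 6 of the 17 chaperone genes listed were lowest there. The values of each are given below.

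The oviduct label was checked against 4 markers. Ovgp1 encodes oviductin, the main glycoprotein of the secretory cells, and its level was 8401, 9504, 8503, 14873 and 8478 TPM. Foxj1, the transcription factor that switches on motile cilia, stood at 611, 704, 952, 631 and 898 TPM. Myh11, the myosin heavy chain of smooth muscle, stood at 910.0, 549.6, 418, 773 and 400.2 TPM. Pax8, a transcription factor of epithelium derived from the Müllerian duct, stood at 98.5, 94.1, 98.3, 67.4 and 67.3 TPM. All 4 markers were present in all 5 oviducts, far above the median gene, which stood at 17.9 TPM. The Dicer1 gene itself (GRCm38 chr12:104687742-104751952, minus strand) was measured at 28.3, 22.6, 25.7, 19.0 and 24.9 TPM, with a mean of 24.1 ± 3.50. The D1693N change alters an amino acid, so that this level does not check the genotype labels.

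Most genes with deposited values were detected in the normal oviduct, and a small number of them held much of the RNA. Every deposited gene had at least 10 reads over the 9 libraries together, tumors included. Genes with fewer reads are therefore absent from the shares of all genes given here and below. Of 19199 genes with a known length, 16889 (88.0%) had a mean of at least 1 TPM, 11917 (62.1%) of at least 10, 1788 (9.31%) of at least 100 and 90 (0.469%) of at least 1000. Those 90 genes together made up 22.1% of all TPM. They comprised 7 mitochondrially encoded genes, 33 ribosomal protein genes and 50 others. The 100 genes with the most reads in a library held 13.8 ± 0.938% of its reads (SD, n = 5), between 12.8% and 15.3%.

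**Figure D1:**
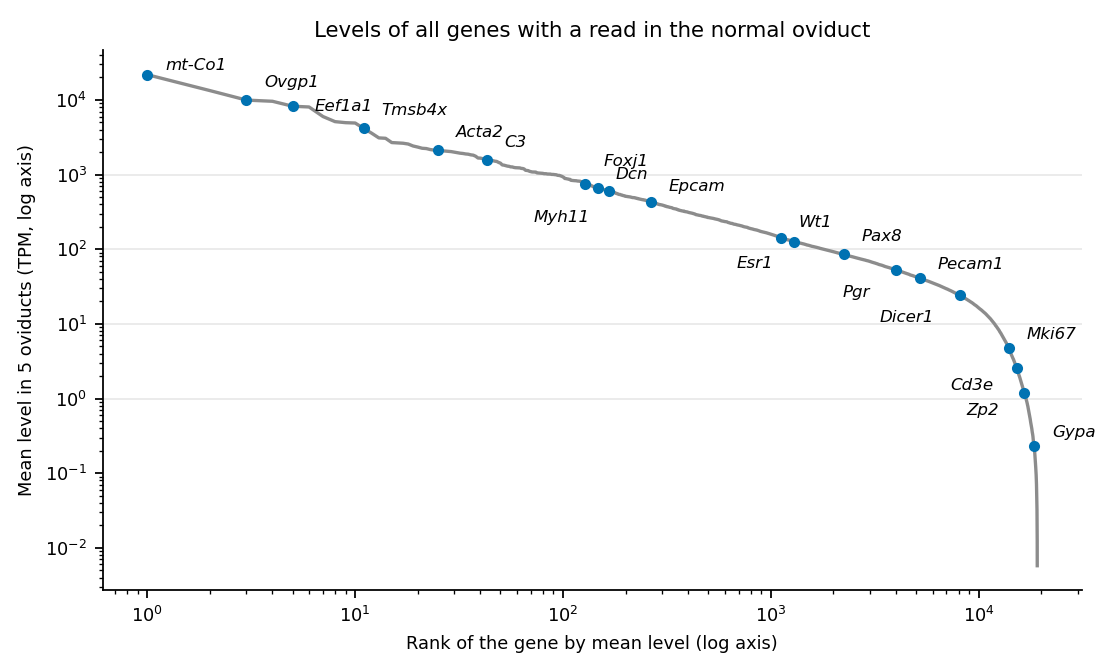
Mean level of each gene over the 5 oviducts in TPM (vertical log axis) against its rank (horizontal log axis), with named genes as blue points. Ovgp1 ranks 3 at 9952 TPM, the ciliary factor Foxj1 stands at 759 TPM, Dicer1 at 24.1 TPM and the proliferation marker Mki67 at 4.74 TPM.

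The highest mean belonged to mt-Co1, a subunit of the respiratory chain that the mitochondrial genome encodes, at 21794 ± 3228 TPM. It was followed by mt-Cytb at 13344 ± 2184, Ovgp1 at 9952 ± 2788 and mt-Nd1 at 9596 ± 1815 TPM. The neighbours Ovgp1 and mt-Nd1 did not differ beyond their spread. Energy and translation machinery took 5 further places among the first 10, namely Eef1a1 at 8237, mt-Nd6 at 8048, mt-Nd5 at 5122, mt-Nd4 at 4959 and mt-Nd2 at 4907 TPM. The remaining place was held by Rplp1, a ribosomal protein gene, at 5994 TPM. The mitochondrially encoded genes in the table, 8 in number, held 5.98% to 8.57% of TPM, with the highest share in oviduct 1. The 97 ribosomal protein genes held 7.32% to 9.44%, with the highest share in oviduct 4. The mt-Nd5 and mt-Nd6 exons overlap on opposite strands, and the counting was not stated to use strand, so their reads cannot be told apart there.

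Among the other genes at the top, several have well known roles in every cell. Tmsb4x, which binds actin monomers, had 4152 ± 739 TPM, Tpt1 3102 ± 154, the ferritin light chain Ftl1 3064 ± 279.9, the interferon-induced membrane protein Ifitm3 2685 ± 474 and the elongation factor Eef2 2657 ± 398 TPM. The ribosomal protein genes Rps15, Rpl36, Rps21 and Rplp0 had means of 2631, 2567, 2337 and 2254 TPM, and the cytosolic chaperone Hsp90ab1 had 2164. Rps3a1 differed from these in its spread, at 2444, 2409.8, 2374, 2452 and 963 TPM. It was lower in oviduct 5 than in every other oviduct. On the deposited log2 scale, which is not corrected for length, Ovgp1 had the highest mean of all genes, followed by mt-Co1, Eef1a1, mt-Cytb, mt-Nd5, mt-Nd1, Eef2, the complement gene C3, Yam1 and Tpt1. The means of Ovgp1 and mt-Co1 lay closer together than the SD of Ovgp1, and mt-Co1 was higher than Ovgp1 in oviducts 1, 2 and 3. The symbol Yam1 matched no gene of the annotation and has no TPM. Its normalized counts were 19155, 22823, 18760.0, 22730.0 and 18590.0, where a normalized count is a read count divided by the size factor of the library.

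The epithelial surface gene Plet1 also stood among the 25 highest, at 2583, 2296, 2184, 2129.5 and 2886 TPM. Its annotated antisense gene Plet1os had 2014, 2046, 1903, 1864 and 2579 TPM, and the exons of both overlap. Gm20721, at 2232 TPM, likewise overlaps exons of Gnas on the opposite strand. Without strand information the reads of such pairs cannot be assigned to either gene.

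Ovgp1 led the secretory epithelium by a wide margin. The gene lies at GRCm38 chr3:105973711-105987423 on the plus strand, and it alone held 0.823% to 1.53% of the reads of an oviduct. Oviducts 1, 2, 3 and 5 lay within 8401 to 9504 TPM, and oviduct 4 stood above them at 14873. Its transcription is known to respond to oestrogen. The upstream sequence is shown because Ovgp1 is the most abundant gene of the tissue that the mitochondria do not encode. It is taken from RefSeq on GRCm38.p6, chr3:105973552-105973710 on the plus strand, and ends before the first annotated exon. Capitals mark GGTCA, the core of the site that oestrogen receptors bind, searched on both strands.

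Ovgp1: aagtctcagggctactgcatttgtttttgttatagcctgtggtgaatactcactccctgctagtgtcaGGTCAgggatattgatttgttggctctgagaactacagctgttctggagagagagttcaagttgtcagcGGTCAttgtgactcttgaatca

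The 250 bases upstream of the RefSeq start hold 2 matches to GGTCA. At least as many were found in 9.29% of the 27025 genes with such a sequence, and 38.4% held at least 1 match. The motif is short, and a match here is a description of the letters only.

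All 29 measured genes of the list reached 10 TPM, against 62.1% of all genes, and 17 of 29 (58.6%) reached 100 TPM, against 9.31%. Here and in the other lists, a measured gene is one with deposited values, and a missing member may have had too few reads. Their median was 173 TPM. After Ovgp1 came C3, the central complement protein, at 1555 ± 262 TPM, and the keratins Krt18 and Krt8 of simple epithelia at 1229 ± 193 and 836 ± 129 TPM. C3 was measured at 1590.4, 1789.9, 1629.9, 1661 and 1106 TPM, lowest in oviduct 5. Epcam, the epithelial adhesion molecule, was even across the oviducts at 382, 428, 462, 485 and 413 TPM. Cldn4, a tight junction claudin, varied more than any other member on the log2 scale. Its values were 40.2, 65.5, 60.9, 20.1 and 14.6 TPM, and the 2 Dicer1+/+ oviducts lay below the 3 Dicer1+/D1693N oviducts. Cldn4 was named for its spread and was not called in the genotype contrast given below. The lowest member was Folr1, the folate receptor, at 24.9 ± 3.11 TPM. The summed level of the list was 16597, 18738, 17255, 25019 and 16673 TPM, highest in oviduct 4, where Ovgp1 was also highest. In such whole-tissue RNA, fewer cells of a type and less RNA per cell cannot be told apart.

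Multiciliated cells build motile cilia from tubulins, dynein arms and radial spokes under the control of Foxj1 and the RFX factors. RFX proteins bind the X-box, and many promoters of ciliary genes carry it. All 41 measured members of the multiciliated list exceeded 1 TPM, 38 (92.7%) exceeded 10 and 21 (51.2%) exceeded 100 TPM, against 88.0%, 62.1% and 9.31% of all genes. The upstream sequences of 6 members with a match to GTTGCC, the core of the X-box, are shown because these genes have the highest levels among the members that carry the motif. Each is from RefSeq on GRCm38.p6, read 5′ to 3′ on the strand of its gene and trimmed where an annotated exon begins. Capitals mark GTTGCC or its reverse complement GGCAAC.

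Ccdc153, chr9:44240498-44240557, plus strand: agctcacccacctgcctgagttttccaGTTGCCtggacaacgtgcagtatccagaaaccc
Dynlrb2, chr8:116504937-116504973, plus strand: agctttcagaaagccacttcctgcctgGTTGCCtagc
Fam183b, chr11:58801961-58802020, minus strand: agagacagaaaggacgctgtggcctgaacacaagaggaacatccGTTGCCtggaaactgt
Lrrc23, chr6:124779734-124779793, minus strand: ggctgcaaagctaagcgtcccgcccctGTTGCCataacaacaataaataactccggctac
Pifo, chr3:106001498-106001557, minus strand: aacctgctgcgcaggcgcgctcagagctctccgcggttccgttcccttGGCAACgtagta
Tekt1, chr11:72361883-72361942, minus strand: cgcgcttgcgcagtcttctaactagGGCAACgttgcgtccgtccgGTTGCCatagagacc

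These 6 genes had means of 604 ± 134, 498 ± 119, 429 ± 179, 174 ± 31.7, 173 ± 45.3 and 170.1 ± 34.3 TPM. Dynlrb2 is a light chain of the dynein motor and Tekt1 a tektin of the axoneme. Of 36 members with an upstream sequence, 14 (38.9%) held GTTGCC on either strand within 250 bases. The share was 11.8% of the 27025 genes with a sequence and 12.8% of the 12485 among them that reached 1 TPM in the oviduct. The other 8 members with a match were Cfap44, Dnaic2, Ccdc113, Hydin, Dnah10, Rfx2, Ccno and Mcidas.

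The tubulins Tubb4b and Tuba1a were the highest members, at 1042 ± 167 and 1016 ± 262 TPM, and are not confined to ciliated cells. Foxj1 followed at 759 ± 157 TPM and Tppp3, which binds microtubules, at 642 ± 135 TPM. The large dynein heavy chains lay lower, for example Dnah5 at 162 ± 35.5 and Dnah9 at 69.9 ± 17.4 TPM. The genes that commit a cell to many cilia were the lowest of the list. Gmnc stood at 5.43, 6.09, 5.86, 2.26 and 12.1 TPM, Ccno at 1.51, 3.53, 2.63, 3.25 and 5.28 and Mcidas at 2.88, 0.949, 0.943, 2.67 and 4.82 TPM. Most members of the list shared their lowest oviduct, but Ccno and Mcidas did not share it. Here and in the other lists, the highest and lowest oviduct of a member are counted on the deposited log2 scale. The shares of all genes highest or lowest in each oviduct are not given here. These counts therefore do not separate a trait of a list from a trait of a library. Of its 38 members with a mean of at least 100 normalized counts, 33 were lowest in oviduct 4, while 24 were highest in oviduct 3 and 14 in oviduct 5. The summed level was 7645, 8719.7, 10729.5, 6601 and 10798 TPM.

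Smooth muscle genes were also high. Acta2, the smooth muscle actin, had 2645, 1675, 1469, 2809 and 1983 TPM, Myl9, a myosin light chain, 2109.8, 1539, 1372, 2440.4 and 2129, and Tagln, transgelin, 2044, 1126, 1375, 3361 and 1196 TPM. All 3 were highest in oviduct 4. Oviduct 1 came next for Acta2 and Tagln, while Myl9 stood close together in oviducts 1 and 5. Csrp1 had 1129 ± 322 TPM and Myh11 610.0 ± 224. Des, the muscle intermediate filament desmin, had the largest spread of the list, at 585, 266, 329, 784 and 280.4 TPM. The lowest member was Ldb3 at 4.61 ± 0.914 TPM. The summed level of the 22 genes was 13742, 8669, 8634, 16647 and 9926 TPM, and 14 of the 20 members with at least 100 normalized counts were highest in oviduct 4. Of 18 members with an upstream sequence, 2 (11.1%), Myl9 and Ldb3, held a CArG box, the motif that serum response factor binds, against 1.62% of all genes.

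Stromal and matrix genes were carried by Gsn, the actin-severing protein gelsolin, at 1761 ± 166 TPM, the proteoglycan Dcn at 664 ± 151, Sparc at 619.5 ± 239 and Igfbp5 at 534 ± 107 TPM. All 29 exceeded 1 TPM and 16 (55.2%) reached 100, against 88.0% and 9.31% of all genes. Fibrillar collagens differed most. Col3a1 stood at 236, 178, 148, 526 and 297 TPM and Col1a1 at 223, 219, 139, 509 and 346 TPM, both highest in oviduct 4 and lowest in oviduct 3. Dcn went the other way in part, at 835, 715, 728, 605 and 437 TPM, with its lowest value in oviduct 5. Pi16, a gene of adventitial fibroblasts, was the lowest member at 7.71 ± 1.43 TPM. The summed level of the list was 7318 ± 876 TPM, and 16 of 28 members were highest in oviduct 4.

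The mesothelial list shares C3 and Krt19 with the secretory list. Of its other members, Wt1 had 141, 155, 150.0, 128 and 139.8 TPM and the uroplakin Upk3b 123, 208, 128, 119.9 and 92.0 TPM. Wt1, a transcription factor of mesothelium and gonadal ridge, was even across the oviducts. Upk1b stood at 49.9, 82.6, 44.2, 39.2 and 31.3 TPM and Bnc1, the lowest member, at 14.4 ± 4.24 TPM. Oviduct 2 held the highest value of 9 of the 11 members with at least 100 normalized counts. The summed level was 3081 ± 376 TPM.

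Transcription factors of the Müllerian duct and of epithelia had the summed level with the smallest ratio of highest to lowest oviduct among the 34 lists, 1.10, at 2313, 2222, 2179.9, 2111 and 2127 TPM. Ehf, an epithelial ETS factor, led at 285 ± 23.2 TPM, followed by Tbx2 at 259.5 ± 18, Elf3 at 211 ± 70.2 and Sox17 at 159.8 ± 29.8 TPM. Pax8 averaged 85.1 ± 16.3 TPM, Pax2 28.4 ± 3.54 and Emx2 124 ± 9.71 TPM. Gata4, a factor of ovarian somatic cells, had the largest spread, at 14.4, 30.2, 3.92, 6.09 and 4.4 TPM, with its highest value in oviduct 2. Lhx1, which is needed to form the duct in the embryo, was at 0.105, 0.415, 0.459, 0.407 and 1.71 TPM.

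Hox genes pattern the Müllerian duct along its length, and Hoxa9, Hoxa10, Hoxa11 and Hoxa13 are known for domains that run from the oviduct to the vagina. The normal oviducts held Hoxa9 at 13.6, 13.7, 10.5, 19.9 and 9.01, Hoxa10 at 12.3, 14.1, 7.66, 13.1 and 3.50 and Hoxa11 at 3.55, 2.22, 3.43, 3.75 and 0.715 TPM. Hoxa13 had no read in any oviduct. The means were 13.4, 10.1, 2.73 and 0 TPM in this order, and the range of Hoxa10 overlapped those of Hoxa9 and Hoxa11, which did not overlap each other. A count of 0 allows up to 3 reads in a library, equal to 2.25 to 3.35 normalized counts, for counting error only. Across the clusters, the highest were Hoxb6 at 101 ± 12.1, Hoxb7 at 77.4 ± 9.61, Hoxa5 at 73.5 ± 15.0 and Hoxc6 at 51.5 ± 12.3 TPM. Of 36 measured Hox genes, 30 (83.3%) reached 1 TPM and 22 (61.1%) reached 10 TPM, shares close to the 88.0% and 62.1% of all genes. Like Hoxa13, Hoxd12 and Hoxd13 were without reads. Oviduct 4 was highest for 11 of the 18 members with at least 100 normalized counts, and oviduct 5 was lowest for 11. The summed level was 853 ± 95.6 TPM.

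**Figure D2:**
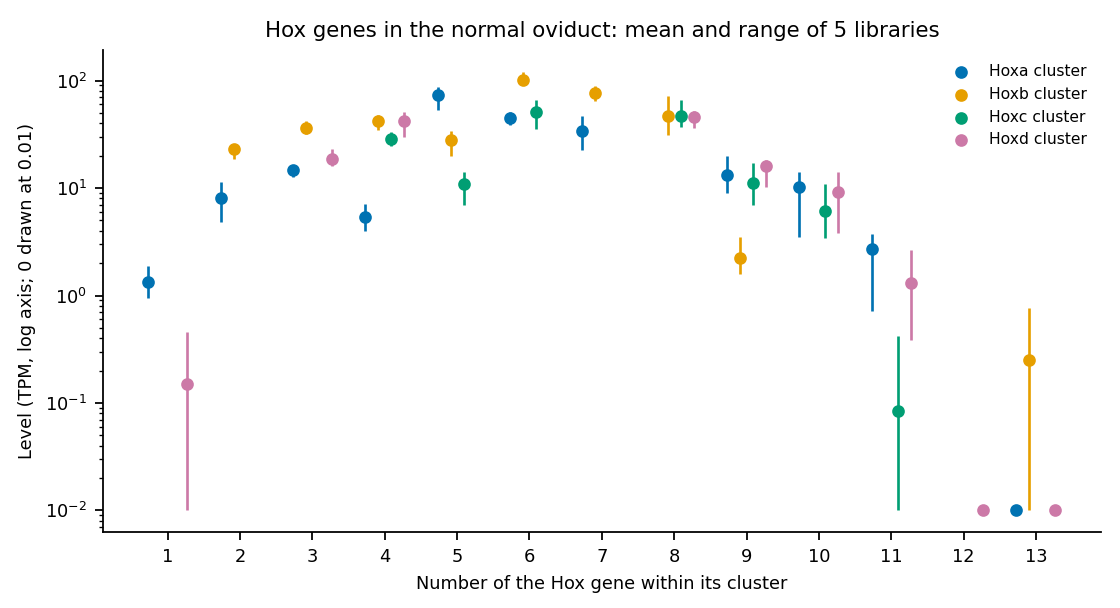
Level of each measured Hox gene in TPM (vertical log axis, 0 drawn at 0.01) by its number within the 4 clusters, with the mean as a point and the range of the 5 oviducts as a line. Apart from Hoxa4, genes numbered 3 to 8 have means between 10.9 and 101 TPM, and Hoxa13, Hoxd12 and Hoxd13 had no read.

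Steroid hormones of the cycle act on the oviduct through nuclear receptors. Esr1, the main oestrogen receptor, stood at 138, 130.1, 113, 120.2 and 131 TPM, an even level. Pgr, the progesterone receptor, stood at 49.6, 40.7, 40.4, 39.6 and 93.7 TPM, with oviduct 5 above all others. Esr2, the other oestrogen receptor, was at 1.79 ± 1.34 TPM. The membrane-associated Pgrmc1 and Pgrmc2 had 259 ± 19.0 and 160.5 ± 15.2 TPM, the cyclin Ccnd1 173 ± 22.5 and Hsd17b11 160.1 ± 31.3 TPM. Fkbp5, a chaperone partner of steroid receptors and a known target of them, ranged most in this list, at 79.6, 24.1, 23.2, 20.8 and 8.98 TPM. It was highest in oviduct 1 and lowest in oviduct 5. The summed level of the 19 genes was 1387 ± 123 TPM.

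Genes of uterine epithelium were present as well. Ltf, lactotransferrin, an iron-binding secreted protein, stood at 1438, 2741, 1760.4, 1777 and 599.9 TPM, highest in oviduct 2 and lowest in oviduct 5. Calb1, which binds calcium, had 270.0 ± 27.7 TPM, Lcn2 259 ± 91.8 and Foxa2, the factor of uterine glands, 49.5 ± 5.13 TPM. The gland proteases Prss29 and Prss28 were low. Prss29 had 0.724, 1.19, 0, 31.8 and 9.0 TPM and Prss28 0.702, 0, 0.307, 2.72 and 0 TPM. The summed level was 2369.8 ± 825 TPM.

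The miRNA machinery, to which Dicer1 belongs, was present in every oviduct. The helicases Ddx5 and Ddx17 led with 966 ± 102 and 349 ± 18.2 TPM. Drosha, which makes the first cut in the nucleus, had 58.6 ± 6.82 TPM, and the silencing partner Tnrc6a 40.5 ± 4.62. Dicer1 ranked below them. Among the Argonautes, Ago1 had 34.7 ± 1.59 and Ago2 28.5 ± 3.93 TPM, while Ago4 was the lowest and most variable member at 8.37, 6.17, 6.4, 5.77 and 3.53 TPM. All 15 genes exceeded 1 TPM, against 88.0% of all genes, and the summed level was 1787, 1729.6, 1773, 1480.1 and 1582 TPM. The median SD of the list was 0.127 on the log2 scale, against 0.184 for all genes tested for spread.

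Transport of ions and water sets the fluid of the lumen. Atp1b1, a subunit of the sodium pump, had 237 ± 52.0 TPM, the scaffold Slc9a3r1 479 ± 86.9 and the water channel Aqp1 216 ± 42.9 TPM. Cftr, the chloride channel, stood at 63.3, 60.3, 70.3, 78.6 and 86.2 TPM. Aqp8 had the largest spread, at 5.95, 4.10, 1.18, 29.4 and 72.7 TPM, and was higher in both Dicer1+/+ oviducts than in the other 3. Aqp8 was named for its spread and was not called in the genotype contrast given below. The share of all genes that split this way is not given here. Slc26a3 was the lowest at 0.189 ± 0.146 TPM. The summed level was 2955 ± 191 TPM.

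Prostaglandins and peptides act on tubal muscle. Ptges3 had 287 ± 41.3 TPM, the natriuretic peptide receptors Npr1 and Npr2 223 ± 37.8 and 87.2 ± 37.5, and Hpgd, which breaks prostaglandins down, 102 ± 31.9 TPM. Ptgfr, the receptor of prostaglandin F, stood at 123, 9.15, 8.21, 16.7 and 7.42 TPM, and its mean without oviduct 1 was 10.4 TPM. Edn3 was lowest at 4.06 ± 1.93 TPM. The summed level was 1182 ± 56.2 TPM. Among secreted growth factors and cytokines, Fgf1 led at 204, 234, 213, 98.2 and 123 TPM, followed by Vegfa at 91.2 ± 10.1, Tgfb3 at 87.6 ± 13.3 and Wnt11 at 82.4 ± 17.7 TPM. Ihh, the hedgehog ligand of reproductive tract epithelium, stood at 26.1, 33.6, 27.3, 3.45 and 31.1 TPM, low in oviduct 4 alone. Il6 was nearly absent at 0, 0, 0.462, 0.114 and 0.168 TPM. The sum of the list was 1087 ± 154 TPM.

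Among antioxidant enzymes the cellular glutathione peroxidases Gpx1 and Gpx4 had 685 ± 290.1 and 397 ± 29.0 TPM and the peroxiredoxin Prdx1 443 ± 35.2 TPM. The secreted Gpx3 had the highest mean, but it rested on oviduct 1. Its values were 2874, 743, 589.8, 639 and 396 TPM, and the mean without oviduct 1 was 592 TPM. Gpx2 was lowest at 5.04, 6.74, 8.23, 20.5 and 2.54 TPM, and the list summed to 4879 ± 901 TPM. The chaperone list summed to 10223 ± 1188 TPM. Calr, Pdia3, Hsp90b1, Hspa5 and Pdia4, which fold proteins in the endoplasmic reticulum, were highest in oviduct 4. The list as a whole was divided. Of its 17 members, 7 were highest and 6 lowest in oviduct 4, while 6 were highest in oviduct 5. Calr stood at 1109, 1106, 883, 1901 and 1240.2 TPM, Hsp90b1 at 863, 842, 854, 1637 and 801 and Pdia4 at 387, 485, 387, 889 and 389 TPM, while Pdia3 averaged 1082 ± 309.8. The inducible heat shock gene Hspa1a was the lowest at 27.3 ± 3.8 TPM.

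Immediate early genes respond within minutes to handling of a tissue. Jund had 683 ± 20.7 TPM, Ier3 304 ± 86.5, Jun 253 ± 50.2 and Btg2 106 ± 19.5 TPM. Fos had the largest spread, at 30.2, 28.6, 165, 49.1 and 92.8 TPM, and was highest in oviduct 3. Egr2 was lowest at 2.22 ± 0.761 TPM, and the list summed to 2091 ± 208 TPM. Proliferation genes were low. Of 22 cell cycle genes, 5 (22.7%) reached 10 TPM, against 62.1% of all genes. Pcna led at 73.6 ± 6.21 TPM, with Mcm6 at 21.3 ± 2.19, Mcm3 at 13.3 ± 2.99 and Ccna2 at 12.0 ± 0.978 TPM. Mki67 stood at 3.14, 4.76, 6.35, 5.47 and 3.98 TPM, Aurkb at 0.145, 0.957, 1.40, 3.10 and 3.61 and Bub1 at 0.844 ± 0.366 TPM. The list summed to 208 ± 18.9 TPM. Housekeeping genes summed to 21329.8 ± 1398 TPM, and Pgk1 had their largest spread at 205, 223, 231, 436 and 356 TPM, with B2m at 1999 ± 491 and Tbp at 11.5 ± 1.39 TPM. Xist, the RNA of the inactive X chromosome, was at 197 ± 28.4 TPM and its antisense gene Tsix at 34.8 ± 10.2 TPM. Without strand information, reads cannot be assigned to either gene where their exons overlap. Of the 6 genes in the list of X and Y genes, only Xist and Tsix had deposited values, so no Y-linked gene of it could be described. A gene without deposited values cannot be told here from one with too few reads.

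The blood endothelium list had no member at 100 TPM, a level that 9.31% of all genes reached. Of its 15 members, 13 (86.7%) reached 10 TPM, against 62.1% of all genes. Its highest were Cldn5 at 67.2 ± 9.06, Plvap at 61.9 ± 9.63, Eng at 49.1 ± 18.7 and Sox18 at 46.6 ± 11.8 TPM, and the lowest was Flt1 at 7.55 ± 3.32. Robo4 had the largest spread, at 12.6, 15.4, 6.34, 8.97 and 6.4 TPM, and the list summed to 484 ± 92.9 TPM. Of its 15 members, 9 were highest in oviduct 1. The lymphatic genes Lyve1 and Mmrn1 had 24.4 ± 7.94 and 20.6 ± 7.84 TPM, Flt4 stood at 21.6, 14.8, 8.03, 9.13 and 4.32 TPM and Prox1 at 2.44 ± 0.821 TPM. Pdpn, at 308 ± 58.5 TPM, is also made by mesothelium. All 5 lymphatic members with at least 100 normalized counts were lowest in oviduct 5, and the list summed to 370.3 ± 79.4 TPM. The pericyte genes Rgs5, Kcnj8, Notch3 and Abcc9 had 53.3 ± 12.8, 52.4 ± 19.1, 31.3 ± 3.86 and 27.6 ± 10.1 TPM and Cspg4 3.27 ± 1.06. That list summed to 175 ± 34.9 TPM.

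Macrophage genes were present in all 5 oviducts. Lyz2, lysozyme, had 459.8, 477, 735, 444 and 329 TPM, and the complement subunits C1qa and C1qb had 219 ± 49.4 and 209.6 ± 34.5 TPM. Ctss stood at 152, 174, 274, 139 and 111 TPM and Cd163 at 4.11 ± 0.629 TPM. Oviduct 3 was highest for 10 of 14 members, and the list summed to 1414, 1537, 2193, 1557 and 1221 TPM. T and NK cell genes were lower. Trbc2 had 21.6, 22.4, 43.7, 9.99 and 16 TPM, Trbc1 6.28, 18.1, 30.4, 2.58 and 4.37 and Cd3g 3.27, 9.31, 9.72, 0.338 and 1.88 TPM, with Trac at 10.6 ± 7.58, Il7r at 6.84 ± 3.73 and Ncr1 at 0.492 ± 0.425 TPM. The list summed to 65.8, 107, 164, 29.5 and 46.7 TPM, highest in oviduct 3 and lowest in oviduct 4. Mast cell genes were modest apart from Hdc, which makes histamine, at 312 ± 64.5 TPM. Cma1 stood at 25.9 ± 9.89, Mcpt4 at 25.4 ± 7.85, Tpsb2 at 23.1 ± 6.77 and Ms4a2 at 0.304, 1.30, 0.266, 0.0983 and 0.145 TPM, and the list summed to 403 ± 86.2 TPM. Neutrophil genes were near 0, with Csf3r at 3.24 ± 1.68, Camp at 2.79 ± 2.06, Ly6g at 1.87 ± 1.41, S100a8 at 1.22 ± 0.716 and Ngp at 0, 0, 0.306, 0 and 0 TPM. Their sum was 11.3 ± 2.49 TPM.

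Among red cell genes, Hbb-bs had 375 ± 137 TPM and Hbb-bt 42.1 ± 19.2, while Slc4a1, the membrane exchanger, was at 0.175, 0.288, 0.535, 0 and 0. The near-identical Hba-a1 and Hba-a2 had 60.4 ± 16.9 and 53.4 ± 11.9 TPM, and how reads were split between them is uncertain. The red cell list summed to 546 ± 159.8 TPM. In the glial list, Pmp22 had 164 ± 29.4 TPM and is also made by fibroblasts. S100b, which fat cells make too, stood at 57.3, 79.6, 78.8, 115 and 245 TPM, Mal at 25 ± 6.86, Mbp at 14 ± 3.38 and the defining factor Sox10 at 0.342 ± 0.298 TPM, with a sum of 336 ± 40.7 TPM. Neuronal genes summed to 40.3 ± 13.7 TPM. Uchl1 had 15.2, 15.7, 12.6, 31.3 and 7.77 TPM, Prph 15.2 ± 5.79, Stmn2 3.11 ± 1.53 and Syp 2.86 ± 0.515, and Elavl4 had no read in any oviduct. Skeletal muscle genes summed to 35.2 ± 6.80 TPM, with Acta1 at 4.73, 9.73, 3.16, 16.7 and 4.53, Tnni2 at 4.41 ± 2.36, Mylpf at 4.06 ± 1.14, Tnnt3 at 3.30 ± 0.944 and Myog without a read. Oocyte genes summed to 48.8 ± 9.0 TPM, most of it Kit at 35.5 ± 3.45 TPM, which somatic cells share. Gdf9 stood at 2.52, 4.03, 0.368, 7.89 and 7.85 TPM, Zp2 at 0.157, 1.45, 0, 0 and 4.35, and the lowest member Nlrp5 at 0, 0.233, 0, 0.228 and 0.675, while Oosp1 and Ooep averaged 2.98 ± 3.10 and 1.58 ± 0.752 TPM.

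**Figure D3:**
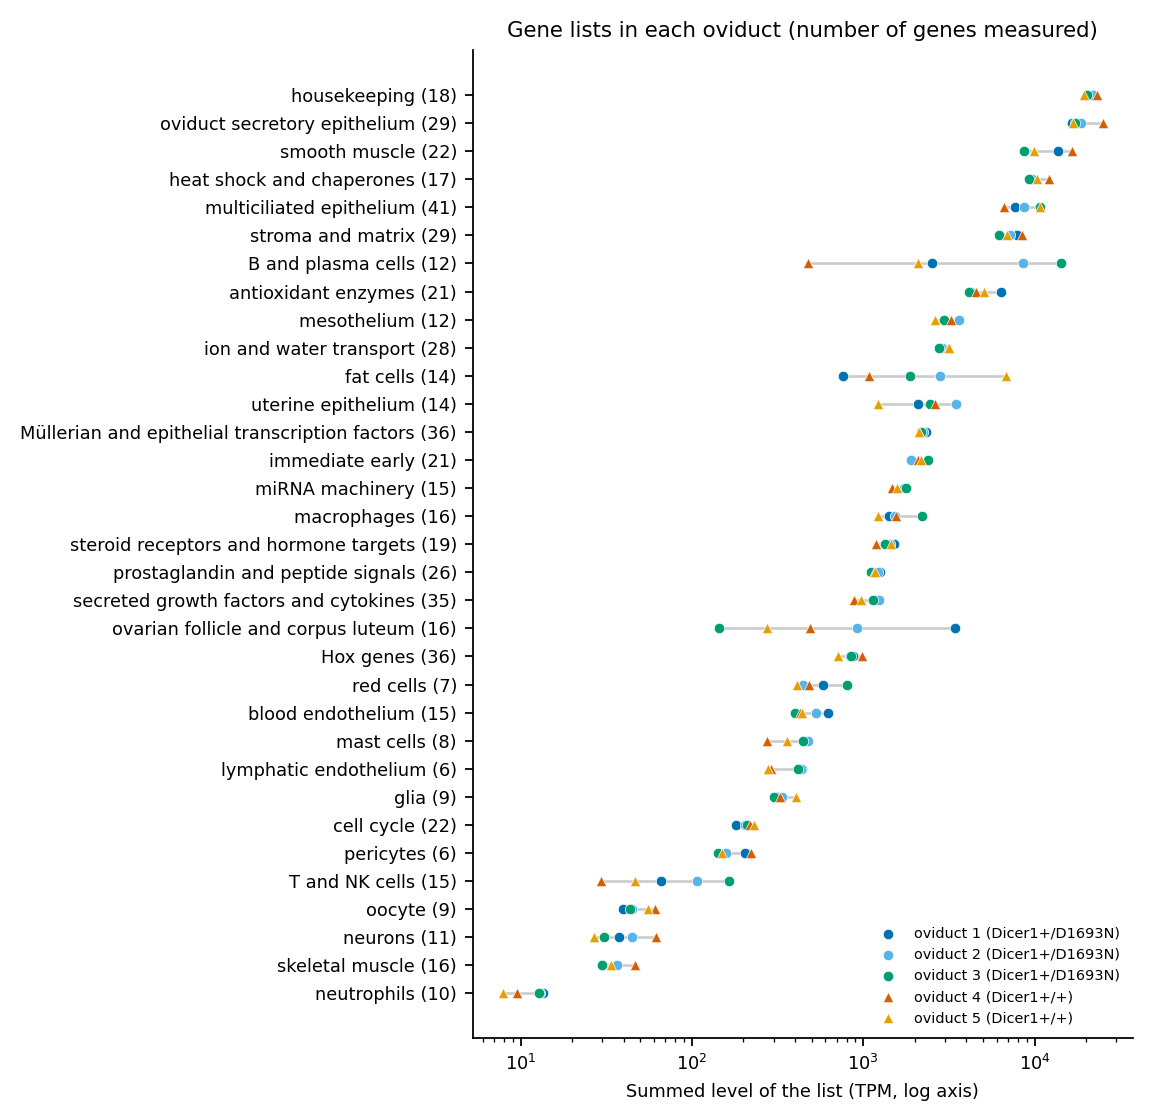
Summed level of each gene list in TPM (horizontal log axis) in each oviduct, with circles for Dicer1+/D1693N and triangles for Dicer1+/+ and a grey line over the range. The lists of B and plasma cells (474 to 14254 TPM), ovarian follicle and corpus luteum (144 to 3427 TPM), T and NK cells and fat cells (760.2 to 6836 TPM) span the widest ranges.

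Most genes differed little between the 5 oviducts, though for most of them by more than counting noise alone gives. Spread was taken as the SD of the deposited log2 values over the 5 libraries, for the 11714 genes with a mean of at least 100 normalized counts. The median SD was 0.184, and 90% of genes lay below 0.394. Counting noise alone gives a median of 0.0641, and 74.3% of genes had an SD more than double that given by counting for the same gene. An SD of at least 1 was reached by 114 genes (0.973%), some of which have the required mean only through the oviduct where they are high. Without oviducts 1 and 5 the number was 92, from the 3 remaining libraries and chosen as a check after the data had been seen.

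The steadiest genes could not be told apart from counting noise. Polr2b, a subunit of RNA polymerase II, had normalized counts of 1327, 1333, 1298, 1339 and 1339.7, and the small GTPase Rab18 992, 998, 1001, 995 and 1018. Ubac1 had the smallest SD of all at 0.00705, with normalized counts of 229, 229.8, 228, 231 and 229. Phactr1, Srsf11, 4933434E20Rik, Ap3d1, Psd3 and Slc25a51 were also among the 10 smallest SDs. In all 10 genes the SD lay below that given by counting noise, as it did in 456 genes (3.89%).

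**Figure D4:**
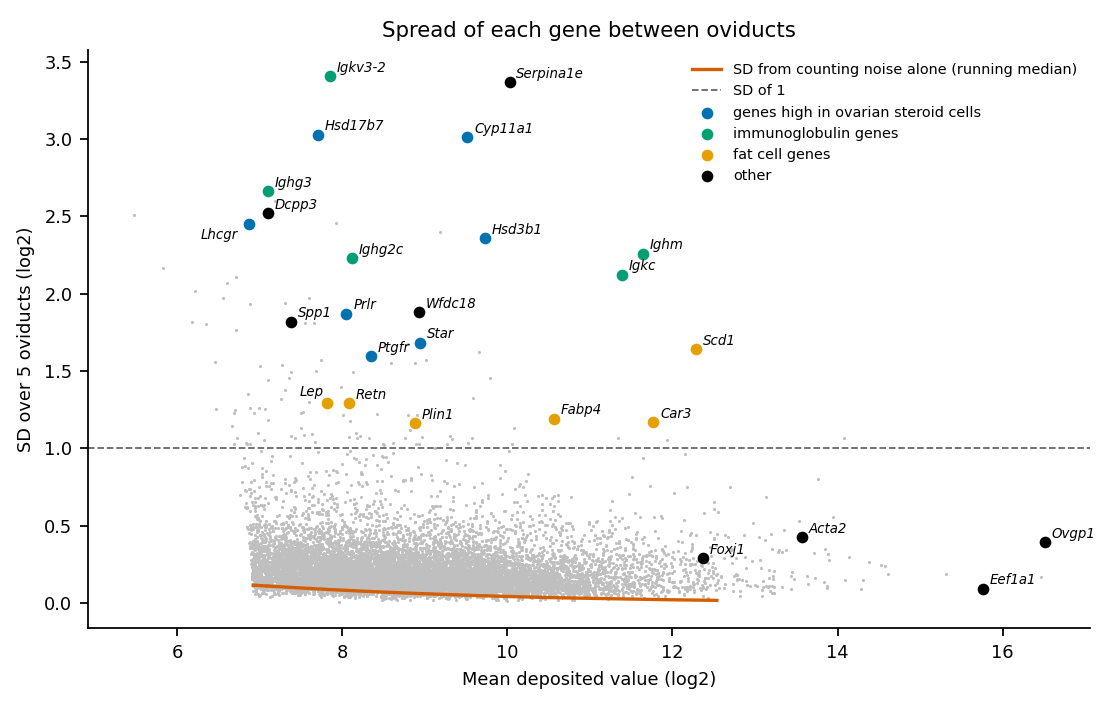
SD of the deposited log2 values over the 5 oviducts against their mean, with 1 grey point for each of 11714 genes and the running median of the SD given by counting noise as an orange line. The marked antibody genes, genes of ovarian steroid cells and fat cell genes stand above the dashed line at an SD of 1, while Ovgp1, Foxj1, Acta2 and Eef1a1 lie below 0.5.

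Immunoglobulin genes held 12 of the 25 largest SDs. Of 173 in the table, 17 had the mean of 100 normalized counts needed here, several of them only through the oviducts where they were high, so that the requirement itself selects for a large SD in these genes. Without them, as a check chosen after the data had been seen, 97 genes remained above an SD of 1. Igkc, the constant region of the kappa light chain, had 1715, 5706, 9016, 180.3 and 1319.6 TPM, and Ighm, the heavy chain of IgM, 462, 2216, 4254, 80.7 and 262 TPM. Both were high in oviducts 2 and 3, intermediate in oviducts 1 and 5 and lowest in oviduct 4. The variable segment Igkv3-2 had the largest SD of all genes, 3.40, from 284, 1545, 2872, 0 and 24.9 TPM. Ighg3 stood at 35.6, 115, 95.8, 0.440 and 0.651 TPM and Ighg2c at 189, 180.1, 327, 3.13 and 24.1 TPM. Igha, the heavy chain of the mucosal antibody IgA, differed in order, at 65.7, 58.0, 82.8, 30.9 and 228 TPM, with its highest value in oviduct 5. The segments Igkv4-91, Ighv1-53, Igkv3-5, Ighv1-72, Ighv1-26 and Igkv5-48 and the constant gene Ighg1 belonged to the same set. Segments are near-identical copies, so the split of reads among them is uncertain. The joining chain Igj stood at 82.2, 188, 470.3, 18.2 and 143 TPM and the B cell factor Pax5 at 1.40, 2.42, 5.19, 0.874 and 1.57 TPM. Of the 7 genes of the B and plasma cell list with at least 100 normalized counts, 6 were lowest in oviduct 4, and the summed level of the 12 genes was 2519.5, 8505, 14254, 474 and 2100.0 TPM.

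The list of ovarian follicle and corpus luteum genes summed to 3427, 922, 144, 487 and 275 TPM, highest in oviduct 1 and lowest in oviduct 3. Cyp11a1, which makes pregnenolone from cholesterol, had 1047, 74.2, 1.87, 87.2 and 22.9 TPM, and Hsd3b1, which acts on its product, 1658, 292, 14.7, 172 and 81.6 TPM. Star, which brings cholesterol into mitochondria, had 310.4, 56.5, 23.6, 21.2 and 14.2 TPM, and the luteinizing hormone receptor Lhcgr 62.4, 13.2, 0.147, 3.65 and 0.749 TPM. Each of the 4 was highest in oviduct 1. Without oviduct 1 the means were 46.5, 139.8, 28.9 and 4.45 TPM. Genes outside the list were also highest in oviduct 1, among them Hsd17b7 at 633, 3.48, 2.64, 4.77 and 8.73 TPM, the prolactin receptor Prlr at 60.8, 5.39, 2.12, 4.07 and 2.03 and the lipoprotein receptor Scarb1 at 226, 29.6, 15.6, 30.1 and 23.0 TPM. Sfrp4, a secreted inhibitor of Wnt signalling, had 986, 30.1, 24.2, 28.2 and 12.7 TPM, the lipase Lipg 235, 1.14, 2.38, 12.8 and 4.16 and Nrcam 27.8, 0.380, 0.308, 1.66 and 4.25 TPM. The inhibin subunits followed another order. Inhba had 6.42, 49.8, 1.34, 8.26 and 0.640 TPM and Inha 97.3, 242, 15.7, 56.4 and 26.6 TPM, both highest in oviduct 2, and Fshr, the receptor of follicle-stimulating hormone, was near 0 at 0.181, 0.836, 0, 0.937 and 0 TPM. None of the 12 genes of the list with an upstream sequence held CAAGGTCA, the site of NR5A factors, which contains GGTCA, on either strand within 250 bases, against 1.51% of all genes. At so low a share, 12 genes would usually hold no match, so no conclusion is drawn from its absence.

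Fat cell genes were highest in oviduct 5, all 14 of 14. Scd1, a fatty acid desaturase, had 152, 392, 351, 148 and 2442 TPM, Car3 176, 813, 462, 227 and 1206, the adipokine Adipoq 62.2, 245, 171, 98.7 and 452 and Cfd 153, 671, 348, 306 and 1235 TPM. All 14 were tested for spread, and an SD of at least 1 was found in 10, against 0.973% of all genes tested, and 11 were lowest in oviduct 1. The lowest member was Acaca at 11.6, 17, 9.63, 9.74 and 19.9 TPM. The list summed to 760.2, 2804, 1863, 1083 and 6836 TPM. Without oviduct 5 the means of Scd1 and Adipoq were 260.5 and 144 TPM.

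Each oviduct was then set against the other 4, for the 11714 genes with a mean of at least 100 normalized counts. Some genes reach that mean only through the oviduct where they are high, such as Ren1 at 11.2, 38.9, 31.8, 634 and 17.9 normalized counts. The requirement thus selects for genes high in a single oviduct. Genes that lay at least 1 log2 unit above all other oviducts numbered 36 in oviduct 1, 4 in oviduct 2, 5 in oviduct 3, 33 in oviduct 4 and 47 in oviduct 5. Those at least 1 log2 unit below all others numbered 4, 0, 8, 17 and 65. Oviduct 5 stood apart in more genes than any other oviduct by this count, and more of them were low than high. Serpina1e, a serine protease inhibitor with close copies in the genome, had normalized counts of 1825, 2779.7, 2810.0, 5029.8 and 2.23. Trim12a had 339, 296, 389, 331 and 2.23 and Gm8113 242, 213, 231, 409 and 1.12. All 3 were well measured in oviducts 1 to 4 and at 1 or 2 reads in oviduct 5. The ribosomal protein genes Rps3a1 and Rpl26 were also in this set, the latter at 876, 1017, 959.7, 987 and 266 TPM. The 65 genes lay on 19 chromosomes, with 11 (16.9%) on chromosome 11 and 7 (10.8%) on chromosome 7, which hold 8.26% and 7.35% of all genes tested for spread. These low genes and the fat cell genes were both features of oviduct 5, and their relation was not tested.

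Oviduct 4 was high in several secreted and matrix proteins. Spp1, osteopontin, had 12.7, 26.2, 17.7, 324 and 14.6 TPM, the renin gene Ren1 2.58, 8.85, 7.22, 134 and 3.95 and Agr2, an endoplasmic reticulum protein of mucous cells, 49.7, 66.6, 46.0, 286 and 59.2 TPM. Postn, periostin, stood at 159.5, 80.4, 73.3, 350.4 and 139 TPM. These 4 were named after their values had been seen. The secreted protein Dcpp3 had 9.78, 26.6, 5.35, 777 and 225 TPM and Wfdc18 38.2, 64.7, 57.9, 543 and 627 TPM, high in both Dicer1+/+ oviducts. The unmatched symbol BC048546, with no TPM, had normalized counts of 9409.9, 12718, 9479, 51072 and 26813, also highest in oviducts 4 and 5.

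**Figure D5:**
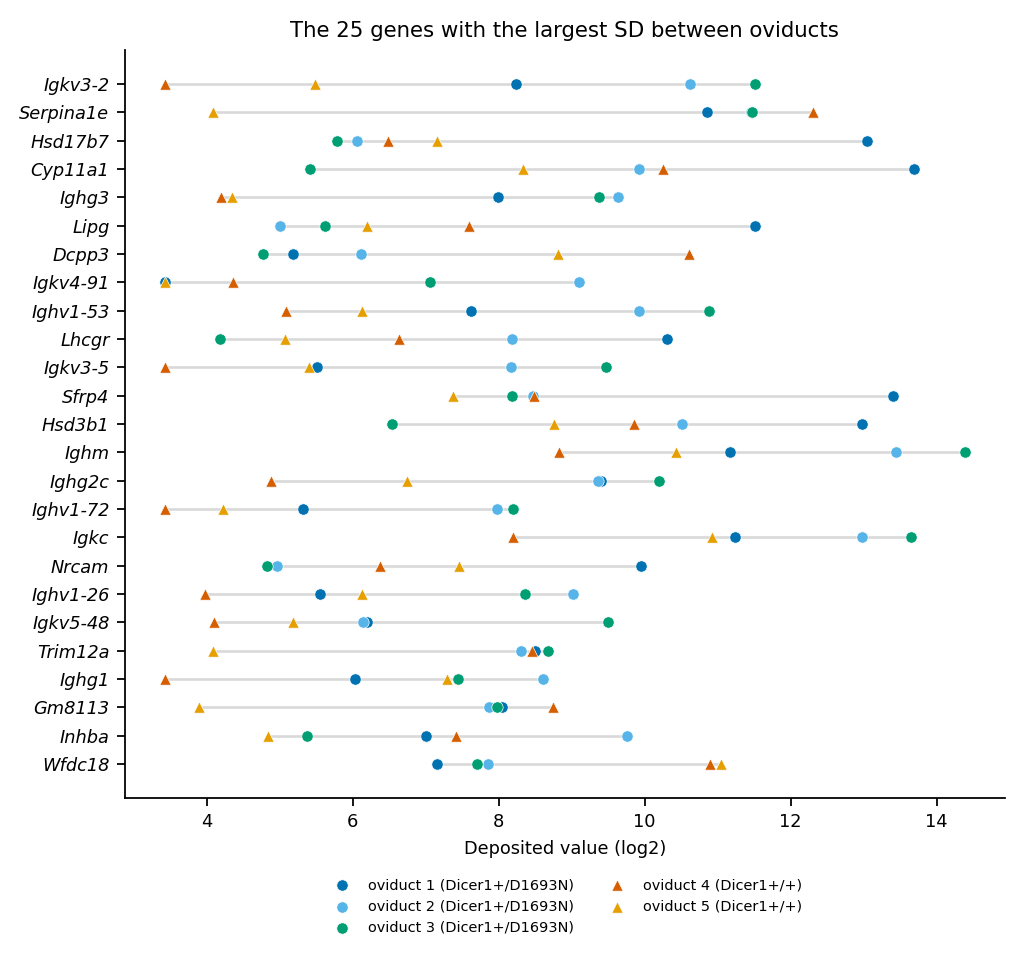
Deposited log2 value in each oviduct of the 25 genes with the largest SD, with circles for Dicer1+/D1693N and triangles for Dicer1+/+ and a grey line over the range. Serpina1e, Trim12a and Gm8113 are low in oviduct 5 alone, Hsd17b7, Cyp11a1 and Sfrp4 high in oviduct 1, and Wfdc18 and Dcpp3 higher in oviducts 4 and 5.

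The labels define a single contrast among the normal oviducts, between the 3 Dicer1+/D1693N and the 2 Dicer1+/+ oviducts. Heterozygous D1693N leaves a normal allele beside the mutant, and the contrast asks whether its presence shifts the tissue's messenger RNA. No gene of 19435 (0 called, 0%) passed limma's moderated test, which asked for a log2 difference of 1 or more in size and a Benjamini-Hochberg value below 0.05. At an unadjusted p under 0.05 there were 2855 genes (14.7%). The p-values measure only the spread among these libraries, which may be technical in part.

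The smallest p-values belonged to Slc6a2, Wfdc18 and Cp. Slc6a2, the noradrenaline transporter, had normalized counts of 59.2, 60.6, 46.8, 832 and 613, and the 2 Dicer1+/+ oviducts lay above the other 3. Its log2 difference, Dicer1+/D1693N minus Dicer1+/+, was -3.29 ± 0.188 (SE, adjusted p = 0.0732 by limma). For Wfdc18, a small secreted protein with a whey acidic domain, it was -3.40 ± 0.221 (SE, adjusted p = 0.0750 by limma), from normalized counts of 122, 209.6, 188, 1883 and 2090.0. Cp, the copper-binding protein ceruloplasmin of secretory epithelium, was higher in the Dicer1+/D1693N oviducts in 3 of 3, at 2050.5, 2010.1, 2150.3, 830.0 and 907 normalized counts. Its difference was 1.23 ± 0.0873 (SE, adjusted p = 0.0799 by limma). Over the alternative fits the adjusted p of limma ranged from 0.0081 to 0.471 for Slc6a2, from 0.00605 to 0.471 for Wfdc18 and from 0.0297 to 1 for Cp. The call depended on the fit. With all 9 libraries sharing a spread 4 genes were called, with limma-voom on recovered reads 4, and with genes under 10 normalized counts left out 8. Without oviduct 1 there were 2. Wfdc18 was among those called in all 4 of these fits, Slc6a2 and the antibody gene Ighg3 in 3 each, and Cp and Lgals1 in 2 each. Oviduct 4 was also the library lowest in antibody genes and oviduct 5 that highest in fat cell genes, and with 2 libraries in the group such features and the genotype cannot be told apart.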

How the data were processed

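Messenger RNA was selected on oligo-T beads from total RNA of each oviduct, primed with random hexamers and sequenced as paired reads on an Illumina instrument, per the labels' protocols. FastQC 0.11.5, STAR 2.5.3a and HTSeq are named with the build GRCm38, per the submitters' processing notes; the annotation and the strand setting of the counting are not given in the sources used here. The deposited values are on a log2 scale with a shared lowest value of 3.43, which a gene without a read takes. Undoing the transformation that this floor and the spacing of low values fit returned whole read numbers, once multiplied by the size factor, for 100% of the values, within a tolerance of 0.05. The formula was inferred from the values and is not stated by the authors. Normalized counts are these reads divided by the size factor, and TPM were computed from them with the union of exons of GENCODE release 21 on GRCm38. Of 19435 symbols, 18579 matched directly and 620 by an older symbol, while 236, with 0.725% to 1.16% of the reads, have no TPM, and 25 of the symbols read as dates.

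The genotype contrast used limma 3.58.1 in R 4.3.3 on the deposited log2 values of the 5 oviducts, with a trend, two-sided tests and Benjamini-Hochberg adjustment over all genes. Calls required a log2 difference of 1 or more in size together with an adjusted p below 0.05. Python 3.11.15 with numpy 2.4.6, pandas 2.3.3 and scipy 1.17.1 was used otherwise, and matplotlib 3.10.9 for the plots. The steps were tested on simulated data. Alternatives covered gene length, scaling, low-value filters, the scale, the test and each oviduct left out in turn. The 5 libraries, the 34 gene lists and the tests were chosen with earlier results of these data known. Named were the 25 highest genes by TPM, the 10 highest by log2, the 25 largest and 10 smallest SDs, from each list up to 4 highest members, the most variable and the lowest, a set of markers, and the 3 smallest p-values. Other named genes were singled out after their values had been seen, and a few members of these sets were counted without being named or are not reported here. The 4 tumor libraries entered only the fit with all 9 libraries and the lowest read total over the 9 libraries.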

Additional observations from a re-analysis of the deposited data

Results flagged for a closer look

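A single oviduct stood apart from the other 4 in 24 of 291 named genes and in none of 34 gene lists, where the gap from the extreme oviduct to its neighbour, as a share of the whole range on the deposited log2 scale, exceeded 0.71. Chance flags about 1 in 20 groups, and many of these genes were named because they vary. Oviduct 1 was the high one for Flt1 (gap share 0.946), Hba-a1 (gap share 0.794), Hsd17b7 (gap share 0.812), Prlr (gap share 0.738), Scarb1 (gap share 0.734) and Sfrp4 (gap share 0.817). Oviduct 2 was the high one for Ms4a2 (gap share 0.719). Oviduct 3 was the high one for Ngp (gap share 1). Oviduct 4 was the high one for Agr2 (gap share 0.815), Hsp90b1 (gap share 0.949), Ovgp1 (gap share 0.787), Pdia4 (gap share 0.737), Ren1 (gap share 0.772) and Spp1 (gap share 0.804). Oviduct 4 was the low one for Ihh (gap share 0.861) and Per1 (gap share 0.867). Oviduct 5 was the high one for Hsp90ab1 (gap share 0.731), Pgr (gap share 0.788) and Plet1os (gap share 0.789). Oviduct 5 was the low one for Gm8113 (gap share 0.819), Rpl26 (gap share 0.848), Rps3a1 (gap share 0.899), Serpina1e (gap share 0.823) and Trim12a (gap share 0.919). Ngp had a single read, in oviduct 3.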

How the results depend on the processing

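No gene was called between the genotypes with quantile normalization, with log2(normalized count + 1) or by adjusted p alone. The number was 4 with all 9 libraries in 1 model, 8 with genes under 10 normalized counts left out and 4 with limma-voom, and leaving out each oviduct in turn gave 0 to 2. Under the filter 16203 genes were fitted in place of 19435, and the smallest adjusted p by limma was 0.0081 against 0.0732. Why the number of calls differed between settings was not tested. Where a genotype was left with 1 oviduct, that oviduct was assumed to vary like the others. The share of reads in the 100 highest genes was 12.2% without the mitochondrially encoded genes, which removes members of that set, and 13.4% to 14.1% with each oviduct left out. Genes with an SD of at least 1 numbered 271 with no minimum level, where more genes are tested, and 84 to 137 with each oviduct left out, 137 on the log2(normalized count + 1) scale and 110 with quantile normalization. Genes at 1000 TPM or more numbered 86 to 93 with each oviduct left out, 94 with the longest transcript as length and 92 without mitochondrially encoded genes. The longest transcript moved the level of 86 named genes by more than the SD over the 5 oviducts and that of 203 by less. No paired analysis was possible because the 2 genotypes share no replicate number. Genes under about 3 reads in a library cannot be told from absent at this depth.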

Other observations

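Genes of the circadian clock, outside the lists above and chosen after their values had been seen, were lower in oviduct 4 than in the other oviducts in several cases. Per1 and Per2, repressors of the clock, stood at 59.8, 60.7, 57.9, 27.3 and 62.7 and 27.9, 29.3, 38.9, 10.8 and 44.6 TPM. Per3 had 25.8, 28.6, 29.5, 9.18 and 18.8 TPM. The output factors Dbp and Tef had 121, 162, 143, 48.3 and 73.5 and 109, 121, 127, 47.5 and 93.9 TPM, the repressors Nr1d1 and Nr1d2 237, 251, 220.3, 107 and 128 and 90.0, 96.4, 96.0, 50.0 and 60.02, and Ciart 5.67, 8.60, 9.42, 2.08 and 8.68 TPM. These 8 were lowest in oviduct 4. Others were not: Cry1, a repressor of the clock, stood at 23.8, 29.8, 45.3, 26 and 43.3 TPM, lowest in oviduct 1, and Clock itself at 27.4, 22.7, 26.2, 21.9 and 26.1 TPM, lowest in oviduct 4 by TPM and in oviduct 2 on the deposited log2 scale. Arntl, the activator whose peak is opposite to theirs, stood at 12.4, 7.76, 11.3, 12.9 and 8.91 TPM, highest in oviduct 4 and lowest in oviduct 2. Npas2 stood at 22.4, 14.2, 13.7, 21.6 and 16.7 TPM, lowest in oviduct 3.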
